A study of Drosophila melanogaster with 2 samples.

Results

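The DNA replication-related element (DRE) is the palindrome TATCGATA, and 1058 of the 5292 peaks of DREF that were examined (20.0%) held at least 1 exact copy of it. The protein was mapped by ChIP-seq, the sequencing of immunoprecipitated chromatin, in Drosophila melanogaster whole embryos aged 0 to 24 hours, in 2 samples labelled as biological replicates 1 and 2 of a single group. Both came from transgenic flies of the strain Dref-GFP, which make a DREF-eGFP fusion, an anti-GFP antibody was used for the precipitation, and chromatin was sonicated to 200 to 800 bp. The embryos were mixed in age and cell type, and their sex was not collected. The peaks were those of the deposited conservative list made from both replicates, on the 6 main chromosome arms. A peak was counted as a DRE peak when a whole DRE lay within 100 bp either side of its summit, the point of highest signal. The remaining 4234 peaks had no exact DRE in that window.

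DREF is a zinc finger protein that binds the DRE as a dimer. The element was defined at promoters of genes for DNA replication, among them those of PCNA and DNA polymerase alpha, and DREF is known as an activator of genes for replication, growth and cell division. The insulator protein BEAF-32 recognises CGATA, which lies within the DRE, so both proteins can compete for such sites. The DRE is also one of the core promoter motifs found at broadly expressed genes of the fly, which often lack a TATA box.

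With a single group and 2 replicates, no test between conditions could be made, and peaks or genes of the same libraries are not replicates. Shares are therefore given with 95% Wilson intervals, which cover the counting of peaks, genes or sites only, and values with quartiles. The deposited peak signal is the authors' measure of strength. Read depth is unknown, so signals are compared within a list only.

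The DRE peaks with 3 copies show the range of arrangements. In each line below the stretch around the copies is given 5′ to 3′ on the strand of the nearest gene start, with the DREs in capitals, from the RefSeq Release 6 (dm6) sequence.
eIF2gamma and Set, chr3R:15263446-15263568, minus strand: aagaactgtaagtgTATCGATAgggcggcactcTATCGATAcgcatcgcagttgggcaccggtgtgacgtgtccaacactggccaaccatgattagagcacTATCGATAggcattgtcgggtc
wts, chr3R:30806590-30806689, minus strand: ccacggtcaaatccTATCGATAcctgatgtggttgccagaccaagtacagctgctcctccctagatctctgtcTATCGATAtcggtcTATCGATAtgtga
Nrg, chrX:8517173-8517316, plus strand: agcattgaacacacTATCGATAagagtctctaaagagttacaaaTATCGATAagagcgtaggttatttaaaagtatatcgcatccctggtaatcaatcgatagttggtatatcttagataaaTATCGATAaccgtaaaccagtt
ref(2)P, chr2L:19542288-19542469, plus strand: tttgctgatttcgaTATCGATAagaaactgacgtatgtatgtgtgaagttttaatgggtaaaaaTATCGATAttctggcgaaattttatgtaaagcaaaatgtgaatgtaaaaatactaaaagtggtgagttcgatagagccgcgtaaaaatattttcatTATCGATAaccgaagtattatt
RpS10b, chrX:19597681-19597790, plus strand: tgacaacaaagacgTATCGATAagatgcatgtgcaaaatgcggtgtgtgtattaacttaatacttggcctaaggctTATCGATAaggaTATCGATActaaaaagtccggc

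Signals at these peaks ranged widely. The peak between eIF2gamma, a subunit of the factor that carries initiator tRNA to the ribosome, and Set, a histone chaperone gene, had a signal of 7337 in the list of both replicates, with 2794 in replicate 1 and 4575 in replicate 2. It was the 3rd strongest peak of all, and its copies lay 68 and 19 bp apart, centre to centre, at 5.5, 73.5 and 92.5 bp upstream of the eIF2gamma start. A start of a further gene, Su(var)3-9, also lay within 250 bp of the summit. The peak at wts, the Warts kinase of the Hippo pathway, had a signal of 5333, with 1898 in replicate 1 and 3450 in replicate 2. Its copies stood on both sides of the start, 20.5 and 6.5 bp downstream and 52.5 bp upstream. At Nrg, which encodes the cell adhesion protein neuroglian, the signal was 5106 and all 3 copies lay between 74.5 and 182.5 bp upstream.

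The other peaks with 3 copies were weaker. The peak at ref(2)P, the fly p62 autophagy adaptor, had a signal of 2813, and that at CDK2AP1 had 2400. The CDK2AP1 copies lay 89 and 6 bp apart. At RpS10b, a ribosomal protein gene of the small subunit, the peak with 3 copies had a signal of 1920 and its summit was 297 bp from the RpS10b start. It was thus outside the 250 bp limit used here for a start, and a separate peak with 1 DRE and a signal of 435 lay within that limit. The peak at PI31, a regulator of the proteasome, had the lowest signal of the 7 at 871, and its summit was in an intron 509 bp from the start.

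Overlapping and adjoining copies were the tightest arrangement. Since the DRE starts and ends with TA, copies can share bases, and 8 peaks held copies whose centres were 6 bp apart. In a further 4 peaks the copies adjoined without a gap, 8 bp apart. The sequences of 4 of the strongest of these 12 peaks are given in the same way, with the plus strand for the first, which lay far from any start.
nearest start snoRNA:Psi28S-3436b, chrX:6741251-6741292, plus strand: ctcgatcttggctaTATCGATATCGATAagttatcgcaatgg
CG12081, chrX:8588741-8588782, plus strand: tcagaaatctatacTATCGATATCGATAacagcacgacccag
Art8 and dUTPase, chr2L:11011077-11011120, minus strand: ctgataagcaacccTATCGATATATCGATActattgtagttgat
dhd, chrX:5312106-5312147, plus strand: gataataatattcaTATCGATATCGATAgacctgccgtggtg

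The first of these peaks was intergenic, 1220 bp from the nearest start, that of snoRNA:Psi28S-3436b, and its signal was 4816, with 1814 in replicate 1 and 3017 in replicate 2. The CG12081 peak had a signal of 2404. The peak between Art8, which encodes an arginine methyltransferase, and dUTPase, whose enzyme keeps uracil out of DNA, had 1911. At dhd, a thioredoxin gene, the signal was 1581. Over the 8 peaks with overlapping copies the median signal was 1452, with quartiles of 1213 and 2401, so these peaks lay within the range of DRE peaks as a whole.

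Most DRE peaks held a single copy. There were 960 peaks with 1 DRE, 91 with 2 and 7 with 3, and no copy was shared between peaks, which gave 1163 distinct DREs. Neighbouring copies in the 98 peaks with 2 or more formed 105 pairs with a median spacing of 28 bp and quartiles of 16 and 62 bp. Spacings ran from 6 to 118 bp. The most frequent was 6 bp, with 8 overlapping pairs, followed by 12 bp and 19 bp with 5 pairs each. A total of 25 pairs were 9 to 20 bp apart, 27 were 21 to 40 bp, 26 were 41 to 80 bp and 15 were over 80 bp. Copies stood on both sides of the summit in 54 of the 98 peaks (55.1%, 45.2 to 64.6). Of the 87 such peaks at protein-coding starts, 62 (71.3%) had every copy upstream of the start and 21 (24.1%) had copies on both sides of it.

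Signals were higher in peaks with more copies, and the order was the same in both replicates. The median signal was 169.7 in peaks with no DRE, 1524 with 1, 1862 with 2 and 2813 with 3. For the same groups replicate 1 had medians of 75.8, 592, 705 and 1085, and replicate 2 had 98.1, 952, 1157 and 1732. The quartiles of peaks with 1 copy (825 and 2439) and 2 copies (1313 and 2903) overlapped, so copy number did not separate single peaks. Over all DRE peaks the signal was 1.63 times as high in replicate 2 as in replicate 1 by median, a ratio that includes any difference in depth.

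Copies that differed from the DRE by 1 letter accompanied a higher signal as well. Among peaks with 1 exact DRE, 617 had no such near copy elsewhere in the window and a median signal of 1289, 266 had 1 and a median of 1909, and 77 had 2 or more and a median of 2375. The same order was seen in peaks with no exact DRE, with medians of 107.5, 963 and 1671. Peaks with 1 exact DRE and no near copy thus had a lower median than peaks with no exact DRE and 2 or more near copies. Both the exact and the near copies count sites in one window of 201 bp, and the exact DRE itself was masked before near copies were searched.

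**Figure D1:**
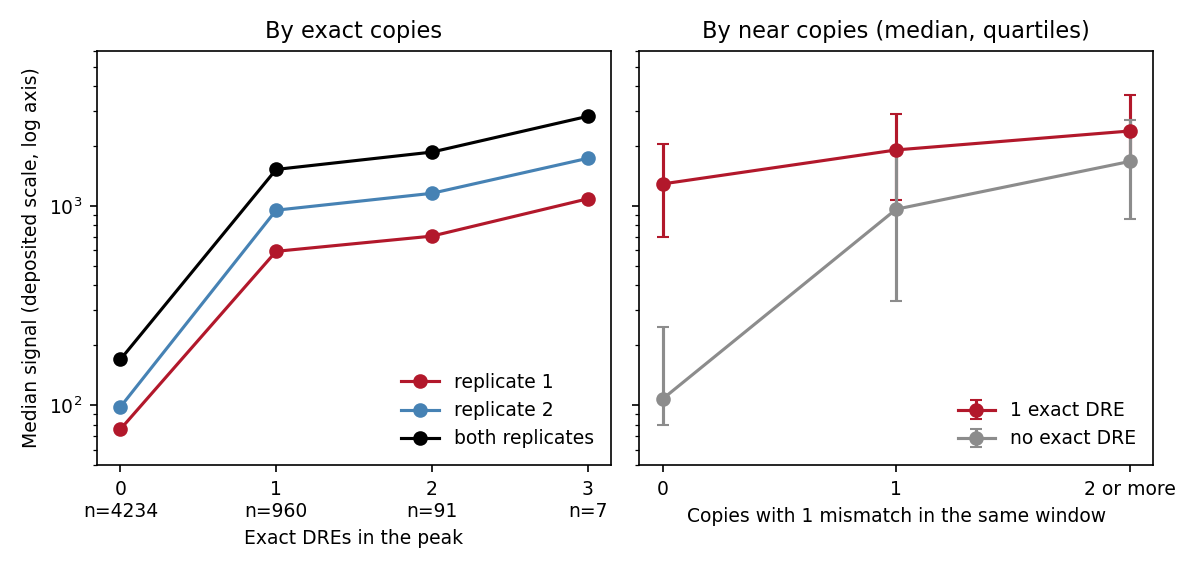
Median deposited peak signal (log axis) by the number of exact DREs in the peak, in each replicate and in the list of both (left), and by the number of copies with 1 mismatch, with bars from the lower to the upper quartile (right). Medians were higher with each further exact copy, up to 2813 with 3 copies, and with each further near copy in peaks with and without an exact DRE.

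The stronger a peak, the more often it held a DRE, up to a plateau. In deciles of signal over all 5292 peaks, a DRE was present in 0.755% of the weakest decile (4 of 530 peaks), 7.37% of the 5th, 23.1% of the 6th, 38.8% of the 8th, 47.4% of the 9th and 45.7% of the strongest. The intervals of the last 2 deciles, 43.2 to 51.7% and 41.5 to 49.9%, overlapped. Peaks with 2 or more DREs made up 6.04% of the strongest decile (32 of 530) and were not found in the weakest 2. The 100 strongest peaks included 51 with a DRE, and the 10 strongest included 5.

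DRE peaks were found in both replicates more often than other peaks. Of the 1058 DRE peaks, 1025 (96.9%, 95.7 to 97.8) overlapped a thresholded peak of each replicate, against 54.4% (52.9 to 55.9) of peaks without a DRE and 62.9% of all peaks. A q-value above 0.05 was attached to 13 DRE peaks (1.23%), against 36.4% of peaks without a DRE and 29.4% of all. Searched separately, the thresholded list of replicate 1 held a DRE in 1030 of 3781 peaks (27.2%) and that of replicate 2 in 1072 of 3956 (27.1%). Summits of both replicates at a DRE peak were 4 bp apart by median (quartiles 2 and 9 bp, 1052 peaks), against 7 bp (3 and 17 bp, 2670 peaks) at starts whose peak had no DRE. Since DRE peaks were also the stronger ones, the part of signal in these differences was not tested.

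DRE peaks lay at gene starts. An annotated transcript start lay within 250 bp of the summit in 958 DRE peaks (90.5%, 88.6 to 92.2), against 63.6% (62.1 to 65.0) of peaks without a DRE and 69.0% of all peaks. At these starts the median signal was 1648 with a DRE (quartiles 956 and 2554) and 429 without one (149 and 1399). With q-values up to 0.05 these medians were 1652 with a DRE (953 peaks) and 664 without one (2312 peaks). Divergent starts flanked 206 DRE peaks (19.5%, 17.2 to 22.0), against 14.2% of the others and 15.2% of all. Such a call needs protein-coding starts within 250 bp of the summit. Of the peaks at a protein-coding start it was made for 206 of 949 with a DRE and 600 of 2646 without, so the share was no higher with a DRE. Peaks between divergent starts held 2 or more DREs in 12 of 206 cases (5.83%, 3.36 to 9.90), and other DRE peaks in 86 of 852 (10.1%, 8.25 to 12.3). Summits of DRE peaks were intergenic in 75.3%, in a 5′ UTR in 12.5% and in an intron in 8.79%. Over all peaks these shares were 57.0%, 13.0% and 16.7%. Only 3 of the 1058 summits of DRE peaks were in coding sequence (0.284%), against 12.02% of summits without a DRE and 9.67% of all.

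The DRE itself stood just upstream of the start. For the 949 DRE peaks at a protein-coding start, the centre of the DRE nearest the summit was a median of 32.5 bp upstream, with quartiles of 57.5 and 9.5 bp upstream. It was upstream of the start in 84.1% (81.6 to 86.3) and within the first 100 bp upstream in 75.4% (72.6 to 78.1). Downstream positions ended sharply, with 10 of 949 DREs over 50 bp inside the gene. Peaks with 2 copies had their nearest DRE at a median of 40.5 bp upstream (82 peaks), those with 1 copy at 31.5 bp (862 peaks). DREs over 100 bp upstream (82 peaks) went with a median signal of 1006, against 1880 for those 51 to 100 bp upstream, 1654 at 26 to 50 bp, 1652 within 25 bp upstream, 1640 within 25 bp downstream and 2158 over 25 bp downstream, where there were 28 peaks.

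**Figure D2:**
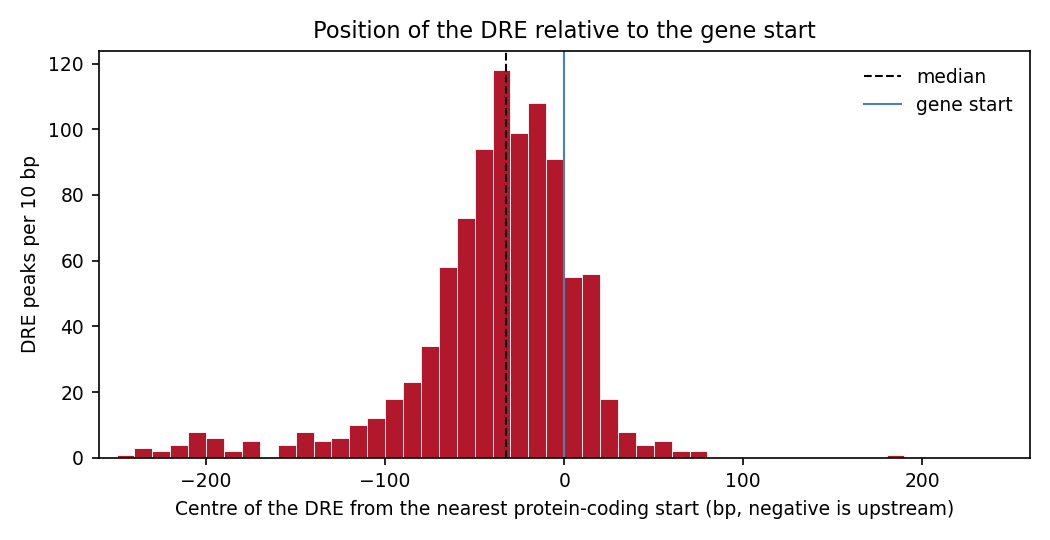
Number of DRE peaks per 10 bp of distance between the centre of the DRE nearest the summit and the nearest protein-coding start, with the 6 of 949 peaks beyond 250 bp upstream not shown. Most DREs lie in the 100 bp upstream of the start (75.4%), the median is 32.5 bp upstream, and few lie over 50 bp downstream.

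The DRE was also close to the summit. Its centre was a median of 17.5 bp away (quartiles 8.5 and 30.5 bp), within 25 bp in 67.0% and within 50 bp in 94.8% of the 1058 peaks. Measured from the summits of each replicate alone the medians were 18 and 17.5 bp. Few DREs lay near the edge of the window: the farthest base was 80 to 100 bp from the summit in 6 peaks, and a DRE just outside, at 100 to 120 bp, was the nearest one in 2 peaks without a DRE inside. The farthest base of the DRE lay 97 bp from the summit at Fas2 (signal 77.4), 96 bp at lncRNA:CR45297 (175) and 88 bp between fs(1)K10 and kz (3693). Just outside the window lay DREs at CG3907 and Xxylt (116 bp, signal 874), pnr (119 bp, 77.8) and asRNA:CR44093 (126 bp, 79.3).

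The 10 strongest DRE peaks, among them the eIF2gamma peak above, had 1 to 3 copies. The sequences around the DREs of 7 of the others are printed to show that strong peaks had different flanks and copy numbers, again in the direction of the nearest start.
CG3862 and dock, chr2L:825841-825926, minus strand: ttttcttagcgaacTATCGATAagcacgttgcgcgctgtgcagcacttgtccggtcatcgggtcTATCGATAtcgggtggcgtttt
CtsF, chr3R:5251780-5251815, minus strand: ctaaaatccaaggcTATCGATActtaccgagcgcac
CG9175, chr2L:6098944-6098979, minus strand: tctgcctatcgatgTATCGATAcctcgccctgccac
eIF3f1, chr3R:4714169-4714204, minus strand: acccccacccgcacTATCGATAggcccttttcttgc
Diap1, chr3L:16051071-16051127, minus strand: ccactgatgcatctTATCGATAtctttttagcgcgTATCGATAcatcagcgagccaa
vib, chr3R:19226687-19226722, minus strand: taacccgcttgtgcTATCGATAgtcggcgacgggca
CG13096, chr2L:8511842-8511877, minus strand: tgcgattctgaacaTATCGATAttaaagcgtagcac

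The peak between CG3862 and dock, an adaptor protein gene of axon guidance, was the 2nd strongest of all with a signal of 7842, with 2833 in replicate 1 and 5033 in replicate 2. Its copies were 50 bp apart, 2.5 bp downstream and 47.5 bp upstream of the CG3862 start. CtsF, which encodes the protease cathepsin F, had a signal of 7209 with 1 DRE 52.5 bp upstream. CG9175 had 7156 with its DRE 4.5 bp downstream, and hppy, a MAP4 kinase gene, had 7075 with 2 copies 60 bp apart. The peak at eIF3f1, a subunit of translation initiation factor 3, had 6440, and that at Diap1, the caspase inhibitor, had 6387 with copies 21 bp apart. The peak at vib, which encodes a phosphatidylinositol transfer protein, had 6178, that at RpS30 had 6130, and that at CG13096 had 6045. In every one of these 9 peaks and the eIF2gamma peak, replicate 2 had the higher signal. This was not particular to the strongest peaks. The median ratio of replicate 2 to replicate 1 was 1.63 over all DRE peaks and 1.34 over peaks without a DRE. Such ratios include any difference in depth.

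The share of DREs in a peak differed with their distance from a start. The 6 arms held 4019 exact DREs, and 1163 of them (28.9%) were in a peak. Within 50 bp of a protein-coding start 724 of 850 DREs were in a peak (85.2%, 82.6 to 87.4). The share was 72.8% (222 of 305) at 50 to 100 bp, 50.5% (94 of 186) at 100 to 250 bp, 26.4% at 250 to 500 bp and 11.4% at 500 to 1000 bp. Over 1000 bp from a start it was 2.26% (51 of 2261, 1.72 to 2.95). DREs 50 to 100 bp downstream of a start were in a peak in 9 of 22 cases, against 213 of 283 at the same distance upstream. Of 203 DREs in coding sequence 3 were in a peak, and of 312 in a 5′ UTR 227 were (72.8%).

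**Figure D3:**
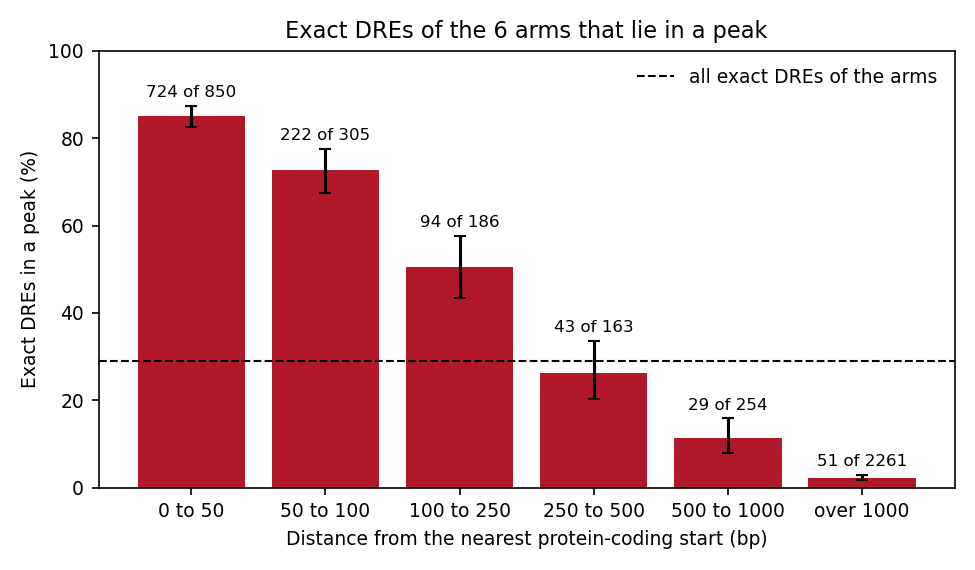
Share of the exact DREs of the 6 arms that lie within 100 bp of the summit of a peak, by distance from the nearest protein-coding start, with 95% Wilson intervals and counts. The share is 85.2% within 50 bp and 2.26% over 1000 bp, and the dashed line marks 28.9% over all DREs.

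A DRE was rare among starts as a whole. Of 19253 windows of 201 bp centred on the distinct protein-coding starts, 6.45% held one. By arm, DREs were densest on arm 4, with 98.7 per Mb, but 6 of its 133 DREs were in a peak (4.51%). Only 10 of the 133 lay within 100 bp of a protein-coding start, and 4 of these 10 were in a peak. On every other arm 79.3 to 88.9% of DREs that near a start were in a peak. On X there were 39.2 per Mb and 301 of 923 were in a peak (32.6%, 29.7 to 35.7). The other arms had 24.8 to 31.0 per Mb and shares of 23.9 to 31.8%. DREs with another within 120 bp were in a peak in 204 of 337 cases (60.5%, 55.2 to 65.6), and lone DREs in 959 of 3682 (26.05%, 24.7 to 27.5). Within 100 bp of a protein-coding start, a DRE with no further copy at up to 1 mismatch within 100 bp was in a peak in 76.2% (519 of 681), with 1 further copy in 89.6% (344 of 384) and with 2 or more in 92.2% (83 of 90). The interval of the first, 72.9 to 79.3%, lay below those of the others, 86.1 to 92.3% and 84.8 to 96.2%.

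Some DREs near starts were outside the peaks. Of the 1341 DREs within 250 bp of a protein-coding start, 301 did not lie within 100 bp of a conservative summit. A conservative summit lay within 500 bp of 126 of these 301 (41.9%, 36.4 to 47.5), so some were beside a peak. Of the 301, 47 were in a peak of the ranked list, which also holds peaks below the threshold. In that ranked list 17 reached the score of 830 that every thresholded peak has. The 5 strongest were the 2 DREs of flfl, a regulatory subunit gene of protein phosphatase 4 (signal 4870), and those of CG15561 (4343), ifc (4317), which encodes a sphingolipid desaturase, and osa (4234), a subunit gene of the Brahma chromatin remodeller. No source used here says why these are outside the conservative list. Counting them as bound, 736 of 850 DREs within 50 bp of a start (86.6%) were in a peak. Of the 291 genes with a DRE outside the peaks, 101 (34.7%, 29.5 to 40.3) had a conservative peak at a start. That interval includes the 30.6% of all protein-coding genes that had such a peak.

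Sites with 1 changed letter were less often in a peak, to a degree that differed with the place of the change. Within 100 bp of a protein-coding start, exact DREs with no second within 200 bp were in a peak in 80.4% (769 of 957, 77.7 to 82.7), and sites that differed from the DRE at 1 position, with no exact DRE within 200 bp, in 50.04% (1315 of 2628, 48.1 to 51.9). With the outermost letter changed the share was 69.6% (852 of 1225), with the next 43.0% (254 of 591), with the next to central letter 46.8% (178 of 380) and with the central letter 7.18% (31 of 432, 5.10 to 10.01). Positions are counted from 1 at the 5′ end of the DRE, and each form was pooled with its reverse complement. T1C sites were in a peak in 76.9% (317 of 412, 72.6 to 80.7) and T1A sites in 69.8% (477 of 683), while T1G sites were in 44.6% (58 of 130). The central changes G5A, C4A and G5C had 11.6%, 4.24% and 1.45%. Several near copies can share a window, so a site counted here need not be the one bound.

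**Figure D4:**
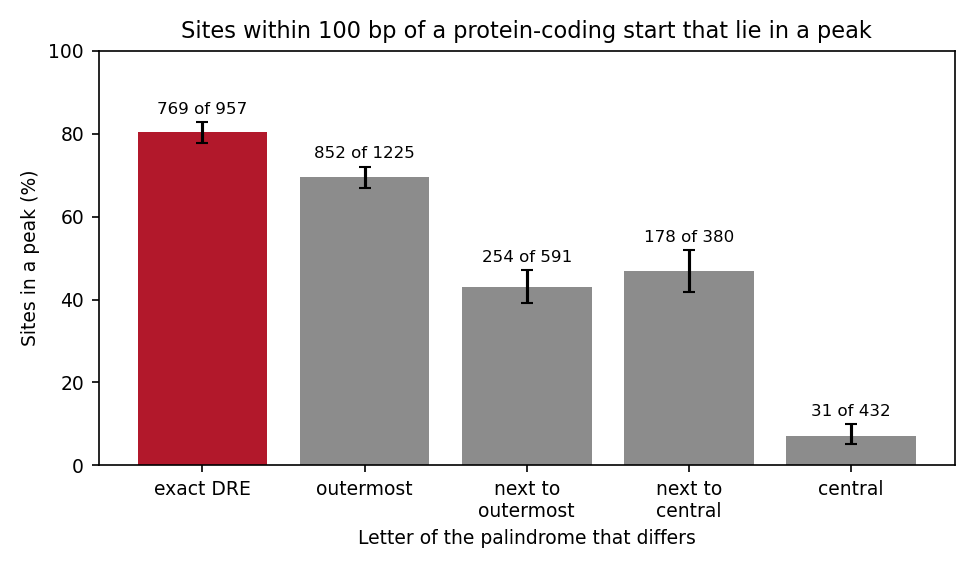
Share of sites within 100 bp of a protein-coding start that lie in a peak, for the exact DRE and for sites with 1 changed letter grouped by its place in the palindrome, with 95% Wilson intervals and counts. The exact DRE is at 80.4%, a change of the outermost letter at 69.6% and a change of the central letter at 7.18%.

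The letters around the DRE also differed between DREs in and outside the peaks. Read outward from either end of the DRE, the first letter was T in 26.7% of ends of the 1163 DREs in a peak (24.9 to 28.5), in 35.2% (31.5 to 39.1) of the 301 near a start but outside the peaks, and in 38.7% (37.4 to 39.99) of the 2611 that lay over 1000 bp from any summit. G was in that place in 32.0% of ends in a peak, 26.1% near a start outside the peaks and 24.9% far from any summit. The second letter was C in 32.5% of ends in a peak and 23.4% of ends far from any summit. Differences of this size were not limited to the adjoining letters. The fifth letter was T in 28.2% of ends in a peak, 33.7% near a start outside the peaks and 34.9% far from any summit, and the tenth was A in 30.01%, 31.7% and 40.8% of these. Repeated sequence was part of the distant set: 581 of its 2611 DREs (22.3%) shared 10 bases on either side with another, against 2 of 1163 in peaks. With each such sequence counted once, T was first in 26.6% of ends in peaks and in 39.4% of ends over 1000 bp from any summit.

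Within 100 bp of a protein-coding start, the pair of letters at both ends went with the share in a peak. DREs flanked by C and G were in a peak in 92.4% (73 of 79, 84.4 to 96.5), by A and G in 88.4% (175 of 198) and by G on both sides in 86.0% (111 of 129). DREs flanked by T on both sides were in a peak in 73.6% (78 of 106, 64.5 to 81.05). The pair of G and T, the most frequent of the 10, was in a peak in 76.1% (153 of 201, 69.8 to 81.5), close to T on both sides. By single end the share was 84.1% beside A, 83.4% beside C, 84.3% beside G and 77.8% beside T. The intervals of G on both sides, 79.0 to 91.0%, and of T on both sides overlapped. Among peaks with 1 DRE the median signal was 1934 with G on both sides (106 peaks) and 1528 with T on both sides (71 peaks). The lowest was 1193, with A and C (54 peaks).

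Other promoter motifs were searched as exact letters on both strands of the same 201 bp, with the DRE itself masked. CGATA, the BEAF-32 site, was in 68.6% of start peaks with a DRE, 65.4% of those without and 37.1% of all protein-coding starts. ATCGAT, the inner letters of the DRE, was in 29.5%, 35.6% and 16.4% of these. GAGAG, the GAGA factor site, was less frequent at starts with a DRE peak than at starts with a peak but no DRE, at 11.9% (114 of 958) and 18.4% (496 of 2691). It was in 24.99% of windows on all protein-coding starts. GGTCACACT, a core of Motif 1 of M1BP, was in 6.99% (5.54 to 8.79) of start peaks with a DRE, 9.51% (8.46 to 10.7) of those without and 4.42% of all starts. CANCNCTA, from core promoter motif 7, was in 28.5% with a DRE, 26.1% without and 11.0% of all starts. TATAAA was in 26.3% with a DRE, 24.0% without and 26.9% of all starts, and CAGCTG, an E-box, was in 19.0% with a DRE, 20.8% without and 13.4% of all starts. CAGGTAG, a Zelda site, was in 0.626% with a DRE, 0.743% without and 1.08% of all starts. TTACAGTA, a scrambled DRE, was in 0.731% with a DRE, 0.632% without and 0.467% of all starts. Copies with 1 mismatch were in 34.3% (31.4 to 37.4) of DRE peaks at starts and in 40.7% (38.9 to 42.6) of start peaks without a DRE. They were in 14.6% of windows on all protein-coding starts. The overlap of these letters with each other was not removed, and a match is no evidence that the factor is bound.

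DRE peaks lay at the starts of 1172 protein-coding genes, 27.4% of the 4272 that had any peak at a start. Those 4272 were 30.6% of the 13945 protein-coding genes of the arms. Neighbouring genes can share a peak: 226 DRE peaks (21.4%) served 2 or more protein-coding genes, against 15.5% of peaks without a DRE and 16.7% of all. Of the peaks at a protein-coding start these were 226 of 949 with a DRE and 657 of 2646 without, no higher a share with a DRE. A peak with 2 or more DREs lay at 105 of the 1172 genes. Below, each gene list is given by how many of its genes with a peak had a DRE in it, beside this share of 27.4%.

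Genes of DNA synthesis and the cell cycle often had a DRE. Of 34 DNA replication genes with a peak, 16 had a DRE (47.1%, 31.5 to 63.3). Top2, topoisomerase II, was the strongest with a signal of 4643, its DRE 50.5 bp upstream. PolA2 (4250) and PolA1 (3599), subunits of the polymerase that starts new DNA strands, were next, and PCNA, the sliding clamp, had 2666. The others were Orc5, PolE2, dUTPase, Psf3, Orc2, chif, PolE4, Prim2, Sld5, Gnf1, PolD3 and DNAlig1, with signals from 233 to 2369. Of 24 cell cycle genes 12 had a DRE (interval 31.4 to 68.6%), led by Cdk2 (4086), the kinase of S phase entry, Rbf2 (3783), a retinoblastoma family protein, and mad2 (3567), of the spindle checkpoint. BubR1, Bub1 and Bub3 of the same checkpoint had 2718, 2107 and 1349. In DNA repair 4 of 18 had a DRE (22.2%, 9.001 to 45.2): Ku80 (2460), FANCI (1811), Fancd2 (1623) and Xpc (288). Of 6 telomere capping genes only moi had one (1722), in a peak that also lay at starts of Ada2a, Polr2D and Tgs1.

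Among 18 published DREF targets with a peak, 10 had an exact DRE (55.6%, 33.7 to 75.4). The list is made of genes known for such elements, so its share is not independent of the motif. Of the genes with a DRE counted above, 4 of the 16 for DNA replication (Orc5, PCNA, PolA1 and PolA2) and 3 of the 12 for the cell cycle (CycA, Myb and SkpA) are also in it. For 7 of the 10 the sequence is given below, to show the single and paired copies at these promoters. Each is on the strand of the nearest gene start, which is that of CG31064 for PolA2 and of Hmt4-20 for SkpA.
PolA1, chr3R:21671739-21671827, minus strand: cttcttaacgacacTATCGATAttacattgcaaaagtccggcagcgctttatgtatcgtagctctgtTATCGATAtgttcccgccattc
PolA2, chr3R:27239133-27239168, minus strand: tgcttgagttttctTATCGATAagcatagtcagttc
CycA, chr3L:11833568-11833603, minus strand: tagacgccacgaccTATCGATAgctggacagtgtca
Orc5, chr2L:13829753-13829788, plus strand: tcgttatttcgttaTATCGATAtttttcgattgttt
p53, chr3R:23054118-23054164, minus strand: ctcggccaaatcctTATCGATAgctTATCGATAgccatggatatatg
Myb, chrX:15857836-15857945, minus strand: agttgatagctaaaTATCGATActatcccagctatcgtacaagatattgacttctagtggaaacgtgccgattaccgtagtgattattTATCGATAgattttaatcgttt
SkpA, chrX:656037-656072, minus strand: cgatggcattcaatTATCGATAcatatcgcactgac

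The copies at PolA1, p53 and Myb came in pairs, and the p53 pair was separated by 3 bases. In replicates 1 and 2, PolA1 had signals of 1347 and 2262, and CycA, the gene of cyclin A, had 1280 and 2166. In the same 2 replicates p53 had 884 and 1370, and Myb, of the complex that activates G2 and M phase genes, had 817 and 1429. Orc5, of the origin recognition complex, had 851 and 1528, and SkpA, of SCF ubiquitin ligases, had 918 and 1586. PCNA had 1021 and 1653 with its DRE 23.5 bp upstream. Tbp, the TATA-binding protein gene, had 900 and 1330, and hpo, the Hippo kinase, had 1057 and 1666 with its DRE 132.5 bp upstream. The 8 targets with a peak but no exact DRE were Raf (1921), Dref itself (1674), PolG2 (1598), mtSSB (1457), TFAM (1303), bsk (1051), brm (326) and E2f1 (178). mor, osa and Trf2 had no conservative peak at a start.

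Genes of protein synthesis and turnover varied around the share of all bound genes. Of 25 translation initiation genes 9 had a DRE (36.0%, 20.2 to 55.5), with eIF2gamma, eIF3f1 and eIF3a (4491) the strongest and a median signal of 3357 over the 9. Aminoacyl-tRNA synthetases had it in 6 of 23 (26.1%), led by TrpRS (4029), AspRS (2355) and IleRS (1665). Cytosolic ribosomal protein genes had it in 22 of 63 (34.9%, 24.3 to 47.2). RpS30 (6130), RpL41 (4826) and RpS29 (4112) were the strongest, and RpS16 (107) the weakest. Mitochondrial ribosomal protein genes had it in 15 of 53 (28.3%), from mRpL4 (3723), mRpL3 (2986) and bonsai (2045) down to mRpL22 (215). Of 23 proteasome genes 10 had a DRE (43.5%, 25.6 to 63.2), with Rpt5 (3367), an ATPase of the regulatory particle, and Prosbeta1 (2903) and Prosalpha5 (2675), of the core, at the top. Oxidative phosphorylation genes had it in 13 of 49 (26.5%), led by UQCR-14 (5424) of complex III, ND-B14.5A (3718) of complex I and COX7A (3281) of complex IV.

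Genes of chromatin, transcription, splicing and growth control followed. Of 19 genes for chromatin and insulator proteins 8 had a DRE (42.1%, 23.1 to 63.7). Iswi, the ATPase of NURF, had a signal of 3192, Cp190, an insulator protein, 3104 with its DRE centred 0.5 bp upstream of the start, and Bap170, a Brahma complex subunit, 2170. Ibf2 (1930), mod(mdg4) (1381), CTCF (1360) and Ibf1 (783), all of insulators, and Nurf-38 (1891) made up the rest. TFIID and Mediator genes had a DRE in 8 of 27 (29.6%), with MED9 (3589), Tbp (2221) and MED28 (1966) the strongest. Splicing genes had it in 12 of 28 (42.9%, 26.5 to 60.9), led by SmE (3683), l(1)10Bb (3168) and snf (2567). In the Hippo and TOR pathways 6 of 17 had a DRE (35.3%): Diap1, wts, hpo, raptor (2022), Lst8 (1756) and Pi3K92E (1680). Diap1, wts and Pi3K92E had 2 or more copies. Of the segmentation and Hox genes 3 of 31 had a peak and none a DRE.

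**Figure D5:**
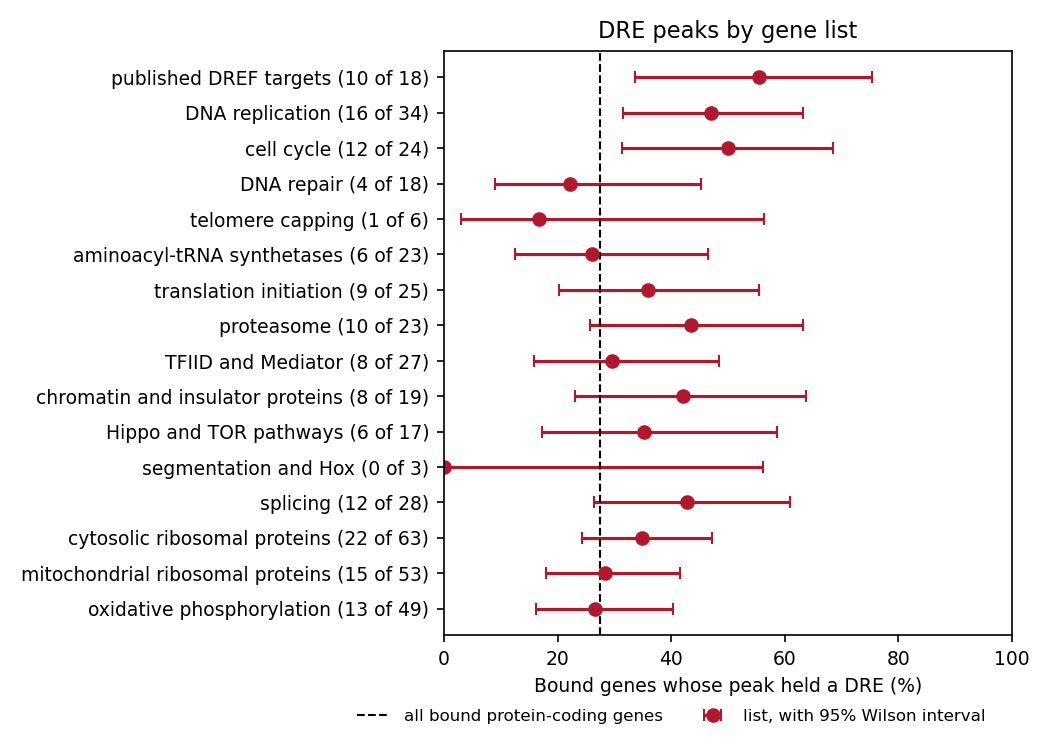
Share of the genes with a peak at a start whose peak held a DRE, for 16 gene lists, with 95% Wilson intervals and counts, and a dashed line at 27.4% for all bound protein-coding genes. The interval lies above the line for published targets, DNA replication and cell cycle genes, and it includes the line for the other 13 lists. Intervals are not adjusted for the number of lists. Of the genes with a DRE, 4 of 16 for DNA replication and 3 of 12 for the cell cycle are also published targets. Shares of these lists without the published targets were not computed. With starts within 100 bp the DNA replication interval, 28.4 to 62.5%, includes the 28.5% of all bound genes.

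A DRE peak far from any start was uncommon. Only 38 of 1058 (3.59%, 2.63 to 4.89) had their summit over 1000 bp from any start, against 23.9% of peaks without a DRE. Their median signal was 398, 17 were intergenic, 16 in an intron, 4 in a 3′ UTR and 1 in a 5′ UTR, and 29 were in the lists of both replicates. The sequences of 3 of the strongest of these, after the overlapping pair given above, are shown on the plus strand. The first was trimmed to 30 bases because it lies in a 3′ UTR.
CG5157, chr3L:16139325-16139354, plus strand: caattggtTATCGATAacttcagtttcatc
CG42709, chr3L:12794687-12794722, plus strand: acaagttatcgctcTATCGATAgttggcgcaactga
SrpRbeta, chr3L:8718786-8718821, plus strand: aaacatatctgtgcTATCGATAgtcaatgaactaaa

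The CG5157 peak, 1435 bp from the nearest start, had a signal of 3009. The peak in an intron 3488 bp from the CG42709 start had 2827, and the intergenic one 1459 bp from SrpRbeta, the signal recognition particle receptor gene, had 2682. Their replicate signals were 1154, 1113 and 1062 in replicate 1 and 1867, 1727 and 1634 in replicate 2. A further peak near lncRNA:CR44282, 1703 bp from its start, had 4053.

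The weakest DRE peaks had signals below the lower quartile of peaks without a DRE, 85.7. The lowest signal was 70.1, in an intron 18714 bp from the nearest start, that of CG1894. Next were 73.6 at RpS5a, 74.5 near the pseudogene CR33498, 74.9 at CG34231 and 75.8 in an intron 509 bp from the CG3257 start. All of these had q-values above 0.05. The RpS5a interval overlapped thresholded peaks of both replicates, with 211 in replicate 1 and 61.5 in replicate 2. The other 4 were in neither replicate list. A total of 12 DRE peaks were in neither list, and the strongest of them were at bbc (255), CG7963 (145), Tbh (120), CG6495 (107) and CG33914 (97.6), the last with 2 DREs.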

How the data were processed

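ChIP-seq peak lists in dm6 coordinates were used, deposited for each of the 2 replicates and for both together. Per the notes deposited with the files, lists were made from a replicate's own alignments or from those of both and ranked by irreproducible discovery rate. No source used here names the aligner, the peak caller, their versions or the control used. Per the file layout, the authors deposited for each peak a score of at most 1000, a signal of peak strength with no stated scaling for depth, the −log10 of a q-value, at most 3.78, and the summit as another column. Every peak of the thresholded lists had a score of 830 or more.

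Of 5355 conservative peaks, 5292 lay on the 6 arms. DREs were found as exact matches (1 strand, since the DRE is its own reverse complement) in RefSeq Release 6, the dm6 sequence. Starts and features came from Ensembl release 115 with 13945 protein-coding genes. A replicate's signal at a conservative peak was that of the overlapping ranked peak with the nearest summit, and presence in a replicate was an overlap of at least 1 bp with its thresholded list. Python 3.11.15, pandas 2.3.3, numpy 2.4.6 and matplotlib 3.10.9 were used, and the search was tested on simulated data.

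Named were all peaks with 3 DREs, the 10 strongest, the 5 strongest with copies at most 8 bp apart, the 5 strongest over 1000 bp from a start, the 5 weakest, 5 in neither replicate list, 3 on either side of the window edge, 3 genes per list, all published targets and the 5 strongest DREs near starts outside the peaks. Further genes named in the lists were chosen after their values were seen. Of 443 listed symbols 421 matched the annotation. The members and the 16 lists were chosen with earlier results of these data known. A second ranked list of both replicates was not used here. The sequence of 1 named site is not reported here.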

Additional observations from a re-analysis of the deposited data

How the results depend on the processing

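No paired analysis was possible because there is 1 group. In 89 comparisons of the main values with other settings, 59 stayed within their interval or limit and 30 did not. The list of a single replicate gave a median position of the DRE from -33.5 to -32.5 bp, a median spacing of 29 bp, a median signal of 626 to 970 and a share in both replicates of 96.4 to 99.4%. With 1 mismatch allowed 2321 peaks held a site, 35.7% of them 2 or more, and 88.5% were at a start. A window of 50 bp gave 7.29% of peaks with 2 or more copies, a distance to the summit of 16.5 bp, a spacing of 24.5 bp and 26.4% of DREs in a peak. A window of 200 bp gave 11.2%, 19.5 bp, 51.5 bp and 31.0% for these, and a position of -33.5 bp. With starts within 100 bp 85.3% of DRE peaks were at a start and the position was -29.5 bp, and within 500 bp 93.8% and -33.5 bp. In the peaks above the median signal, the share at a start was 92.8%, the position -33.5 bp, the spacing 29 bp, the share in both replicates 99.5% and the share of DREs in a peak 27.2%. With q-values up to 0.05 the spacing was 28.5 bp, the share in both replicates 97.9% and the DRE share of all bound genes 29.9%. Requiring an overlap over 50% of the peak length left 95.4% in both replicates. The ranked list at a score of 830 or more, an alternative chosen after seeing the data, gave 1074 DRE peaks, 29.4% of DREs in a peak, 1191 genes and a median signal of 1598. The cause of these changes was not tested, apart from the window and distance limits, which change what is counted. Read depth is unknown, so no peak can be called absent, and weak peaks with q-values above 0.05 rest on little signal.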
